A study of Homo sapiens with 12 samples.

Results

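The genes of the proteasome were described in EndoC-βH1 cells, an insulin-producing human line derived from fetal pancreas. A gene was a member when its current symbol began with PSMA, PSMB, PSMC, PSMD, PSME, PSMF or PSMG followed by a digit and when it had a protein-coding RefSeq transcript, and 49 of the 21508 genes listed in the deposited tables met this rule. Polyadenylated RNA was sequenced from 12 cultures in 4 groups of 3 libraries. All cultures were transfected with siRNA by the lipid reagent Lipofectamine RNAiMAX and were treated 2 days later for 24 hours. The groups were AllStars negative control siRNA with DMSO (diluted 1:1000), TUNAR siRNAs with DMSO, negative siRNA with the GSK3 inhibitor 1-AKP at 5 µM, and TUNAR siRNAs with 1-AKP at 5 µM. TUNAR is a long noncoding RNA. In each group replicates 1 and 2 came from passage 74 and replicate 3 from passage 75 of this 1 cell line, and p-values therefore cover the spread among these cultures and no wider population.

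The proteasome degrades proteins that carry ubiquitin chains. Its 20S core is a barrel of outer alpha rings, which gate the entrance, and inner beta rings, which hold the proteolytic sites, and the 19S cap binds, unfolds and feeds in the substrates. Interferon can exchange the catalytic beta subunits for those of the immunoproteasome, and beta cells, which make large amounts of proinsulin, rely on the proteasome to remove misfolded protein.

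The libraries held between 15653786 and 15986834 estimated counts. In DMSO the range of TUNAR was 14.4 to 19.9 CPM (counts scaled to library size) under negative siRNA and 3.83 to 8.09 CPM under TUNAR siRNAs. In 1-AKP the ranges were 27.9 to 31.0 CPM and 6.95 to 13.6 CPM. The insulin gene INS lay between 9207 and 12851 CPM, and all 13 beta-cell markers passed the filter on low counts. PRSS1 and CELA3A (acinar cells), LUM (fibroblasts), CD3E (T cells) and PPY (pancreatic polypeptide cells) were at 0 in every library. Other markers of the same lists were present: group means were 1207 to 1375 CPM for TTR and 12.5 to 14.6 CPM for SST (other islet cells), 53.0 to 62.7 CPM for KRT19 (duct), 24.5 to 28.3 CPM for CPA1 (acinar cells), 26.7 to 43.8 CPM for CD68 (macrophages) and 3.32 to 4.93 CPM for COL1A1 (fibroblasts). None of these 6 passed the test in any comparison by edgeR without a block for the replicate number. Their part in the results was not tested. These are bulk RNA levels, in which fewer cells of a type and less RNA per cell cannot be told apart.

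Of the 49 members, 47 passed the filter and were tested. PSMB9 (0 to 8 counts per library, 31 in all) and PSMB11 (1 count in each of 2 libraries) did not pass it. The tested members held between 46 and 5649 counts per library. Members comprised 7 alpha-ring genes, 4 structural and 3 catalytic beta-ring genes, 4 immunoproteasome or thymoproteasome genes, 6 ATPases and 11 other subunits of the 19S cap, 3 chaperones of cap assembly, 4 activators, 1 inhibitor and 4 chaperones of core assembly. PSMC3IP, which acts in homologous recombination, and PSME3IP1, which binds the activator encoded by PSME3, met the symbol rule but encode no proteasome subunit. The counts of PSMD4, PSMB2, PSMD5 and PSMD9 were not whole in any of the 12 libraries, those of PSMA5 in 11 and those of PSMG3 in 7, so the values of these 6 genes may include reads shared with other genes.

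Levels were compared between genes in FPKM, which are scaled by gene length, over all 12 libraries. The alpha-ring gene PSMA7 was highest, with a mean of 188 FPKM (166 to 209), and no other member's range reached its range. PSMB4 (140), PSMB5 (129) and PSMB1 (125) followed, and the ranges of neighbours in this order overlapped. PSMD2, a large scaffold subunit of the cap, had the highest mean of the cap genes at 106 FPKM.

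By class, the median of the gene means was 68.7 FPKM in the alpha ring, 101 in the structural and 90.5 in the catalytic beta-ring genes, 63.2 in the ATPases and 53.8 in the other cap subunits. It was 22.0 FPKM in the cap chaperones and 21.5 in the core chaperones. PSMA5 (16.2 FPKM) and PSMB2 (27.1 FPKM) stood apart from the other core genes, and their deposited lengths, 3835 and 4746 bases, are long against the median of 1475 bases over the tested members. The whole core, summed over its 14 constitutive genes, gave 1222 ± 29.5 FPKM (SD, n = 3) with negative siRNA and DMSO and 1195 ± 21.7 with TUNAR siRNAs and DMSO. With 1-AKP these sums were 1316 ± 31.7 and 1311 ± 39.7 FPKM.

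**Figure D1:**
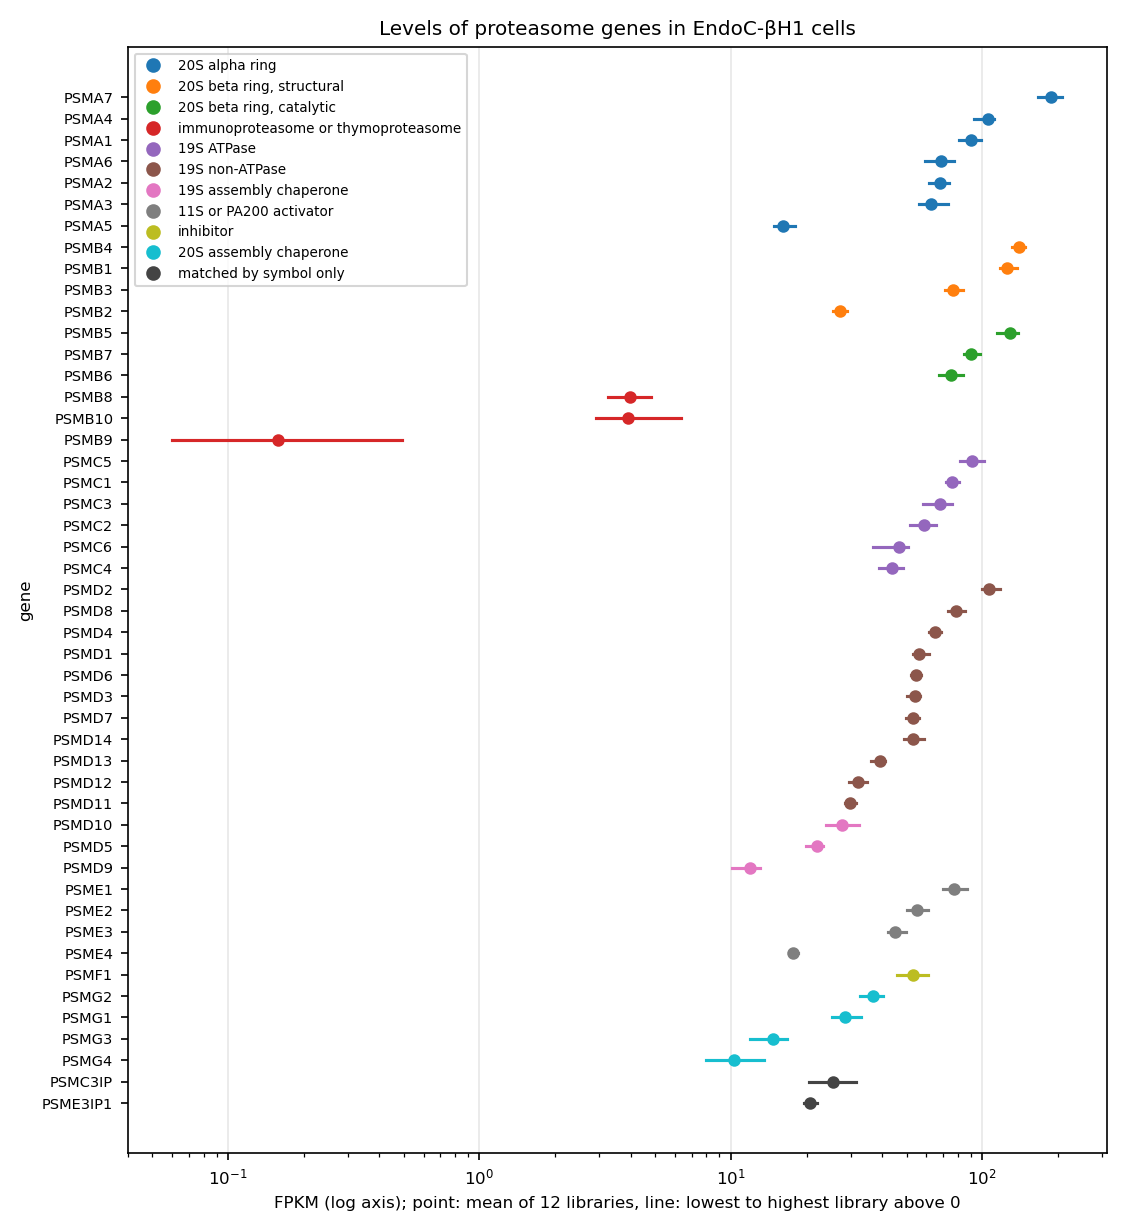
FPKM on a log axis for 48 of the 49 members, grouped by class, with the mean of 12 libraries as a point and the range of the libraries above 0 as a line. PSMB11 (mean 0.005 FPKM) is not drawn, and PSMB9 was at 0 in 2 libraries. PSMA7 is highest at 188 FPKM, and the immunoproteasome genes PSMB8 and PSMB10 lie at 3.96 and 3.90 FPKM.

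The catalytic genes detected were mainly those of the constitutive core. PSMB5, the chymotrypsin-like subunit, averaged 129 FPKM and its immunoproteasome counterpart PSMB8 averaged 3.96 FPKM. PSMB7, the trypsin-like subunit, averaged 90.5 FPKM against 3.90 FPKM for PSMB10. PSMB6, the caspase-like subunit, averaged 75.2 FPKM against 0.158 FPKM for PSMB9.

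Of the summed FPKM of these 6 genes, the immunoproteasome genes held 2.54% ± 0.343 (SD, n = 3) with negative siRNA and DMSO and 2.54% ± 0.154 with TUNAR siRNAs and DMSO. With 1-AKP the shares were 2.71% ± 0.261 and 2.81% ± 0.383, and the libraries of treated and control groups overlapped with each siRNA. PSMB11, the thymus form, was at 0 in 10 of 12 libraries. A gene that a library's table did not list was taken as 0.

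Treatment with 1-AKP was compared with DMSO within each siRNA, to ask how these genes changed under GSK3 inhibition. With negative siRNA 5 of 47 members rose and 0 fell at an adjusted p under 0.05 (edgeR quasi-likelihood test, adjusted over all 15990 genes tested), where 3.54% of all genes rose and 3.76% fell. With TUNAR siRNAs 7 of 47 rose and 0 fell, where 3.72% of all genes rose and 3.79% fell. At an unadjusted p under 0.05 there were 16 and 23 members, against 20.9% and 21.4% of all genes, and no member fell at that p or by DESeq2 in either comparison. The genes that rose with negative siRNA were PSMF1, PSMC2, PSMC3IP, PSMB4 and PSMC5, and with TUNAR siRNAs PSMF1, PSMA6, PSMC5, PSMA7, PSMA4, PSMA2 and PSMB4. PSMF1, PSMC5 and PSMB4 rose with both (3 of 47, 6.38%), as did 2.58% of all genes. These counts, and the calls by edgeR below, come from the fit without a replicate block unless the block is named. With the replicate number as a block, 21 members rose and 1 fell with negative siRNA. With TUNAR siRNAs 26 rose and 0 fell in that fit. It called 14.01% and 14.2% of all genes higher and 12.8% and 12.9% lower.

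The changes were small and mostly of 1 sign. The fitted log2 fold change was above 0 for 45 of 47 members with negative siRNA and for 43 with TUNAR siRNAs, against 49.2% and 49.8% of all genes. Its median over the members was 0.09 and 0.12, against -0.003 and -0.001 over all genes. With negative siRNA all 3 libraries in 1-AKP lay above all 3 in DMSO for 24 members (13.4% of all genes), and with TUNAR siRNAs this held for 23 members (12.1% of all genes). PSMD10 alone lay wholly lower in 1-AKP with negative siRNA (12.5% of all genes), and none did with TUNAR siRNAs (12.02% of all genes).

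These counts have to be read beside the abundance and length of the genes. The tested members had a median level of 85.4 CPM and a median length of 1475 bases, against 23.9 CPM and 2889 bases over all genes tested. Among 577 other genes that were both among the shortest 25% (up to 1876 bases) and among the most abundant 25% (from 66.1 CPM), the median log2 fold change was 0.13 with negative and 0.14 with TUNAR siRNAs. Of these genes 83.4% and 82.7% lay above 0, and 27.6% and 29.1% rose at the threshold.

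The 20 members of the same length and abundance had medians of 0.12 and 0.13, with 100% and 90% above 0 and 10% and 30% risen. The other 27 members had medians of 0.09 and 0.11. With the trend of the fold change on gene length removed, an alternative chosen after seeing the data, 2 members (PSMC2 and PSMF1) and 1 member (PSMF1) rose, and 40 of 47 lay above 0 in each comparison. The part of length and abundance in the members' values was not tested further.

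**Figure D2:**
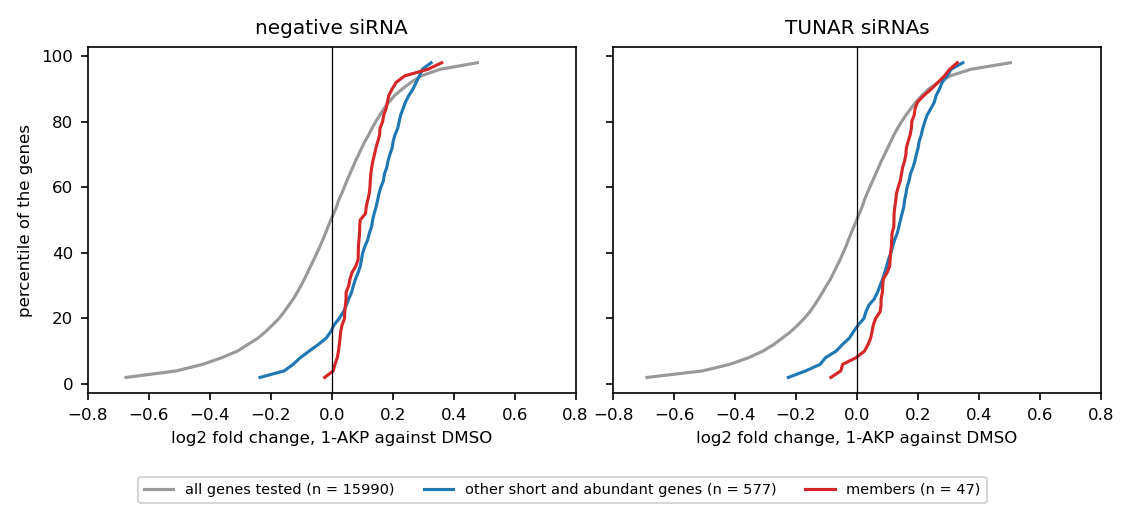
Log2 fold change of 1-AKP against DMSO (horizontal) against the percentile of the genes (vertical), with negative siRNA on the left and TUNAR siRNAs on the right. The curve of the 47 members lies to the right of the curve of all 15990 genes over most of its length, and near the curve of the 577 other short and abundant genes, with medians of 0.09 and 0.12 for the members and 0.13 and 0.14 for those genes.

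PSMF1, which encodes the inhibitor PI31, had the lowest adjusted p of the members in both comparisons. With negative siRNA it stood at 175, 177 and 180 CPM in DMSO and 205, 229 and 225 CPM in 1-AKP (replicates 1 to 3). With TUNAR siRNAs it stood at 170, 182 and 170 CPM in DMSO and 200, 224 and 224 CPM in 1-AKP. Every 1-AKP library lay above every DMSO library. The log2 fold changes were 0.31 (SE 0.057, adjusted p = 0.00737) and 0.31 (SE 0.057, adjusted p = 0.00596), or 23.7% and 24.3% higher. Its call held with any 1 of the 12 libraries left out, with adjusted p up to 0.0431 and 0.0314.

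In the 20S core, 14 of 14 constitutive genes had a fold change above 0 in both comparisons, with medians of 0.12 and 0.15, and 1 and 5 of them rose. Over all genes 38.3% lay above 0 in both, and 3.54% and 3.72% rose. Among the 577 other short and abundant genes the medians were 0.13 and 0.14, and 27.6% and 29.1% rose. The alpha ring, whose N-termini gate the entrance, held 4 of the 5 core genes that rose with TUNAR siRNAs. With negative siRNA 0 of its genes rose by edgeR, and 3 had an unadjusted p under 0.05 (20.9% of all genes). Its 7 genes had a median of 0.12 with negative siRNA and 0.19 with TUNAR siRNAs. The difference of the 1-AKP effect between the siRNAs did not pass the test for any of them.

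PSMA6 stood at 63.5, 63.6 and 70.3 CPM in DMSO and 83.3, 78.0 and 78.9 CPM in 1-AKP with TUNAR siRNAs. With negative siRNA it stood at 70.1, 71.4 and 71.8 CPM in DMSO and 73.3, 77.2 and 81.1 CPM in 1-AKP. The groups did not overlap with either siRNA, and the gap was wider with TUNAR siRNAs. The log2 fold changes were 0.28 (SE 0.056, adjusted p = 0.0103) with TUNAR and 0.12 (SE 0.056, adjusted p = 0.249) with negative siRNA. Without replicate 2 of the TUNAR siRNA and DMSO group the first was no longer called (adjusted p = 0.0559).

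PSMA7 stood at 170, 181 and 185 CPM in DMSO and 195, 207 and 216 CPM in 1-AKP with TUNAR siRNAs. With negative siRNA it stood at 179, 184 and 188 CPM in DMSO and 199, 213 and 207 CPM in 1-AKP. Both pairs of groups were separate. Its log2 fold changes were 0.21 (adjusted p = 0.0267) and 0.17 (adjusted p = 0.0629), and the first call held in 8 of 12 fits with 1 library left out.

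PSMA4 stood at 120, 112 and 121 CPM in DMSO and 135, 129 and 135 CPM in 1-AKP with TUNAR siRNAs, a log2 fold change of 0.17 (adjusted p = 0.0381). With negative siRNA the values were 120, 126 and 130 CPM and 132, 133 and 135 CPM, with 0.09 (adjusted p = 0.318). The groups were separate with both siRNAs, by a narrow margin with negative siRNA. PSMA2 stood at 94.5, 89.0 and 91.1 CPM in DMSO and 107, 98.9 and 108 CPM in 1-AKP with TUNAR siRNAs, a log2 fold change of 0.19 (adjusted p = 0.0449). Its groups overlapped with negative siRNA, where the fold change was 0.09 (adjusted p = 0.388). PSMA1 had similar fold changes with both siRNAs, 0.16 and 0.16, with adjusted p of 0.0722 and 0.0625. With 1 library left out at a time, the calls with TUNAR siRNAs held in 2 of 12 fits for PSMA4 (adjusted p 0.0390 to 0.162) and 3 of 12 for PSMA2 (0.0395 to 0.167).

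PSMB4, a structural beta subunit, stood at 117, 123 and 119 CPM in DMSO and 133, 134 and 131 CPM in 1-AKP with negative siRNA. With TUNAR siRNAs it stood at 121, 121 and 120 CPM and 133, 131 and 134 CPM. All 6 libraries in 1-AKP lay above all 6 in DMSO. The log2 fold changes were 0.14 (SE 0.038, adjusted p = 0.0403) and 0.14 (SE 0.038, adjusted p = 0.0458). These 2 calls lie close to the threshold: with 1 library left out at a time the first held in 1 of 12 fits (adjusted p 0.0382 to 0.142) and the second in 0 of 12 (0.0547 to 0.143).

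None of the 3 constitutive catalytic genes passed the test by edgeR with either siRNA in the fit without a replicate block. With the replicate number as a block, the result was stronger for PSMB5 with both siRNAs and for PSMB7 with negative siRNA. PSMB5 stood at 143, 158 and 161 CPM in DMSO and 161, 167 and 175 CPM in 1-AKP with negative siRNA, a log2 fold change of 0.12 (SE 0.063, adjusted p = 0.292). With TUNAR siRNAs it stood at 147, 165 and 168 CPM and 164, 176 and 177 CPM, with 0.11 (adjusted p = 0.362). Replicate 1 was the lowest library of every group for this gene, and the groups overlapped with TUNAR siRNAs.

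PSMB6 stood at 56.3, 65.6 and 66.7 CPM in DMSO and 62.6, 66.3 and 71.5 CPM in 1-AKP with negative siRNA, and at 58.6, 60.7 and 64.0 CPM and 59.3, 62.8 and 68.7 CPM with TUNAR siRNAs. PSMB7 stood at 90.9, 85.8 and 88.3 CPM in DMSO and 93.1, 96.1 and 101 CPM in 1-AKP with negative siRNA, and at 91.3, 89.5 and 89.3 CPM and 95.7, 91.0 and 98.0 CPM with TUNAR siRNAs. The groups overlapped for PSMB6 with both siRNAs and for PSMB7 with TUNAR siRNAs. Log2 fold changes of 0.09 and 0.06 were fitted for PSMB6 and of 0.13 (adjusted p = 0.126) and 0.08 for PSMB7.

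Among the immunoproteasome genes, PSMB10 had the highest fold change of all members, at low counts. It stood at 3.31, 2.93 and 3.76 CPM in DMSO and 3.86, 4.60 and 4.71 CPM in 1-AKP with negative siRNA, and at 2.89, 3.82 and 3.07 CPM and 3.67, 3.86 and 6.35 CPM with TUNAR siRNAs. The first pair of groups was separate and the second overlapped, with 1 high library at 6.35 CPM. The log2 fold changes were 0.40 (SE 0.21, adjusted p = 0.326) and 0.50 (SE 0.21, adjusted p = 0.191) in the fit without a replicate block. With the replicate number as a block, the result for PSMB10 with TUNAR siRNAs was stronger.

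PSMB8 stood at 5.43, 4.23 and 4.38 CPM in DMSO and 5.69, 4.73 and 4.07 CPM in 1-AKP with negative siRNA, and at 4.09, 5.20 and 5.20 CPM and 5.15, 4.37 and 5.14 CPM with TUNAR siRNAs. Its groups overlapped throughout, with log2 fold changes of 0.04 (SE 0.16) and 0.02 (SE 0.16). PSMB9 had 4, 2 and 1 counts in DMSO and 1, 2 and 0 in 1-AKP with negative siRNA, and 8, 2 and 4 and 6, 1 and 0 with TUNAR siRNAs. Antisense transcripts of PSMB8 and PSMA3 were also listed, at 0.75 to 1.87 and 73.2 to 89.8 CPM. Those of PSMG3 and PSMD6 stood at 3.87 to 6.71 and 0.19 to 1.19 CPM. The library preparation states no strand marking, so reads from either strand of these loci cannot be told apart.

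In the 19S cap, 17 of 17 subunit genes lay above 0 with negative siRNA (median 0.11, 2 risen) and 16 with TUNAR siRNAs (median 0.12, 1 risen). Over all genes the medians were -0.003 and -0.001, and 3.54% and 3.72% rose. Both cap genes that rose encode ATPases of the ring that unfolds substrates. All 6 ATPases lay above 0 with both siRNAs, with medians of 0.15 and 0.14. Of the 11 other subunits none passed by edgeR, while 5 and 7 had an unadjusted p under 0.05 (20.9% and 21.4% of all genes).

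PSMC5 stood at 111, 117 and 120 CPM in DMSO and 129, 128 and 139 CPM in 1-AKP with negative siRNA. With TUNAR siRNAs it stood at 111, 116 and 119 CPM and 132, 139 and 135 CPM. No library in 1-AKP overlapped the DMSO libraries. Fitted changes were log2 0.18 (SE 0.050, adjusted p = 0.0444) and 0.24 (SE 0.050, adjusted p = 0.0140), and with 1 library left out at a time the calls held in 3 and 9 of 12 fits.

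PSMC2 stood at 157, 156 and 150 CPM in DMSO and 178, 174 and 183 CPM in 1-AKP with negative siRNA, a log2 fold change of 0.21 (SE 0.051, adjusted p = 0.0281). Its values with TUNAR siRNAs were 165, 146 and 155 CPM and 176, 165 and 165 CPM, with 0.12 (SE 0.051, adjusted p = 0.184). The groups were clearly apart with negative siRNA, where the call held in 6 of 12 fits with 1 library left out, and nearly touched with TUNAR siRNAs. PSMD13, a cap subunit, stood at 66.1, 63.2 and 65.8 CPM in DMSO and 71.9, 72.5 and 71.6 CPM in 1-AKP with TUNAR siRNAs, and its log2 fold change was 0.15 (adjusted p = 0.120) there and 0.04 with negative siRNA. PSMD7, another cap subunit, was the only cap gene below 0 with TUNAR siRNAs (-0.05, adjusted p = 0.616).

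Among the regulators and chaperones the fold changes lay on both sides of 0. PSMD10, a chaperone of cap assembly also known as gankyrin, stood at 47.4, 45.1 and 46.1 CPM in DMSO and 44.1, 39.4 and 39.2 CPM in 1-AKP with negative siRNA. The values with TUNAR siRNAs were 50.2, 41.5 and 42.6 CPM and 48.3, 38.1 and 38.1 CPM. Each 1-AKP library was lower than the DMSO library of the same number, and the groups were separate with negative siRNA and overlapped with TUNAR siRNAs. The log2 fold changes were -0.17 (SE 0.098, adjusted p = 0.352) and -0.11 (SE 0.098, adjusted p = 0.595) in the fit without a replicate block. With the replicate number as a block, PSMD10 was called lower with negative siRNA (12.8% of all genes) and not with TUNAR siRNAs (12.9%). PSMD10 was singled out after its values were seen.

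PSME1 and PSME2 encode the interferon-inducible 11S activator. PSME1 stood at 86.8, 73.2 and 74.4 CPM in DMSO and 85.2, 76.7 and 76.2 CPM in 1-AKP with negative siRNA, and at 84.5, 74.4 and 74.2 CPM and 82.4, 71.4 and 71.8 CPM with TUNAR siRNAs. PSME2 stood at 45.8, 44.3 and 42.6 CPM and 49.0, 42.1 and 44.1 CPM under negative siRNA. Under TUNAR siRNAs the PSME2 values were 47.0, 41.1 and 40.3 CPM and 48.8, 43.7 and 43.1 CPM. Replicate 1 was the highest library in every group for both genes, and treated and control libraries overlapped. On the log2 scale the changes were 0.02 and -0.05 for PSME1 and 0.03 and 0.08 for PSME2, with adjusted p from 0.638 to 0.924.

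The core chaperone genes PSMG1 to PSMG4 gave no call by edgeR with either siRNA. At an unadjusted p under 0.05 there were 0 and 1 (20.9% and 21.4% of all genes). PSMG3 stood at 12.9, 13.1 and 12.5 CPM in DMSO and 13.5, 16 and 16.5 CPM in 1-AKP with TUNAR siRNAs, a log2 fold change of 0.26 (SE 0.092, adjusted p = 0.116). With negative siRNA the values were 14.3, 15.4 and 13.5 CPM and 14, 14.4 and 15.1 CPM, and the fold change was 0.01. The groups were separate only with TUNAR siRNAs, and the difference between the siRNAs did not pass the test (unadjusted p = 0.0801). PSMC3IP, matched by symbol only, stood at 31.2, 33.5 and 33.4 CPM in DMSO and 40.6, 39.3 and 45.6 CPM in 1-AKP with negative siRNA, a log2 fold change of 0.36 (SE 0.092, adjusted p = 0.0353). Its call held in 4 of 12 fits with 1 library left out, and with TUNAR siRNAs the change was 0.30 (adjusted p = 0.0674).

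**Figure D3:**
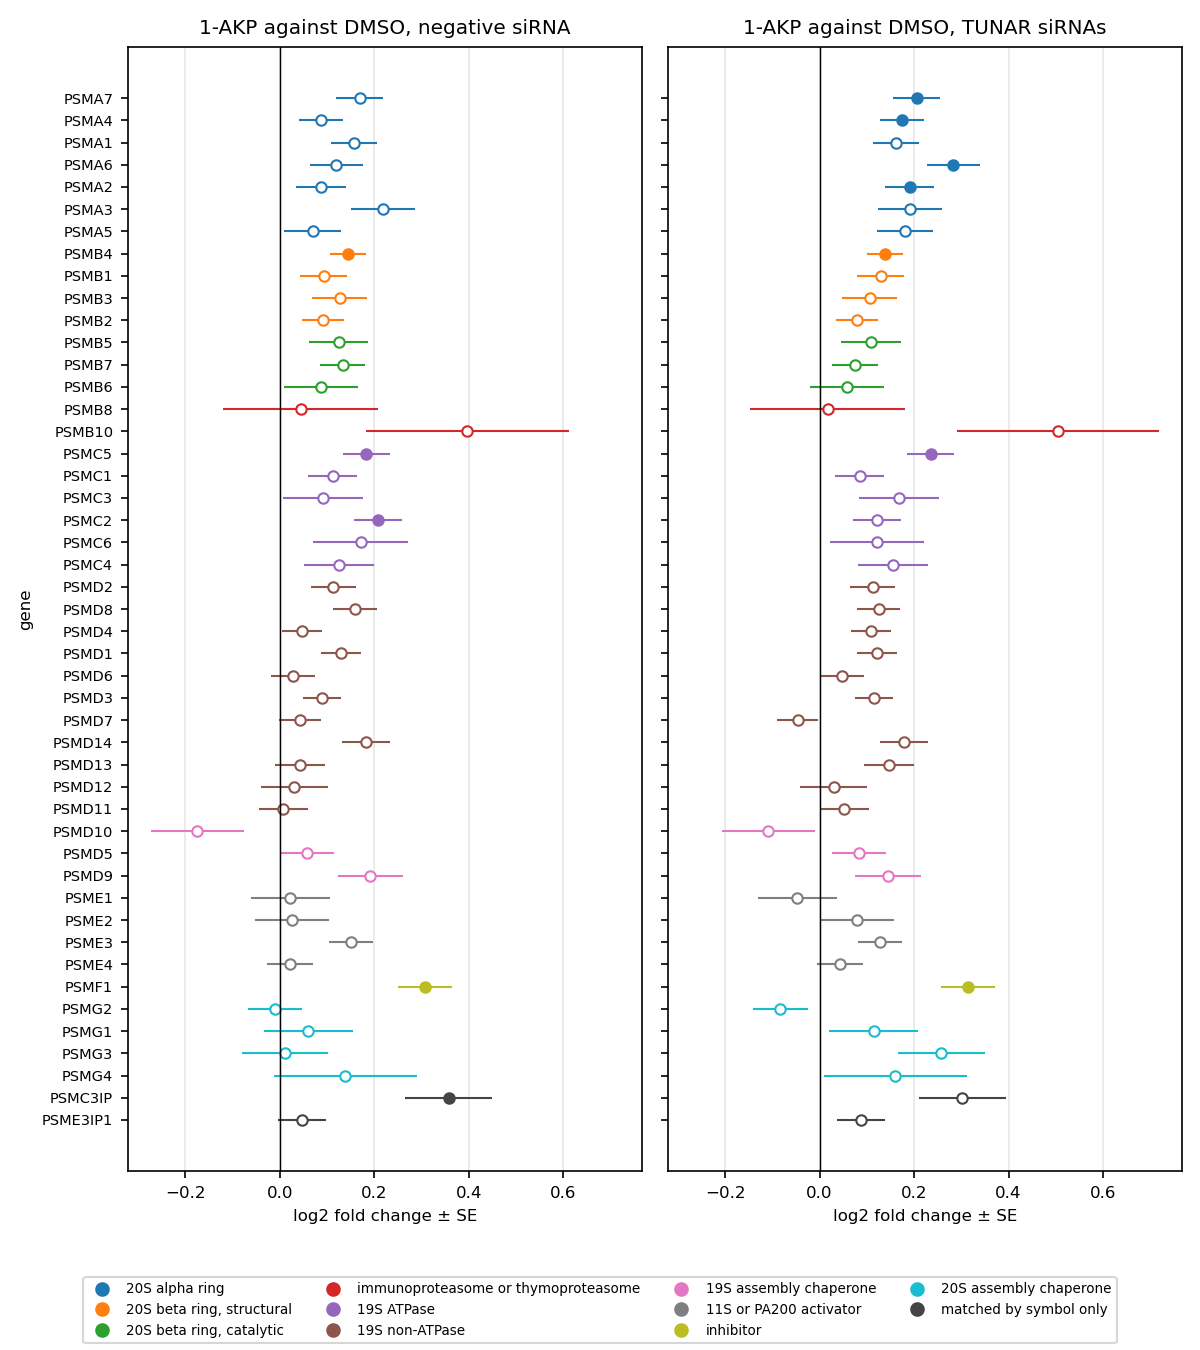
Log2 fold change of 1-AKP against DMSO with its SE for the 47 tested members, by class, with negative siRNA on the left and TUNAR siRNAs on the right. Filled points passed an adjusted p of 0.05 in the fit without a replicate block (5 and 7 members). Most points lie between 0 and 0.3, and PSMD10 lies below 0 in both panels.

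**Figure D4:**
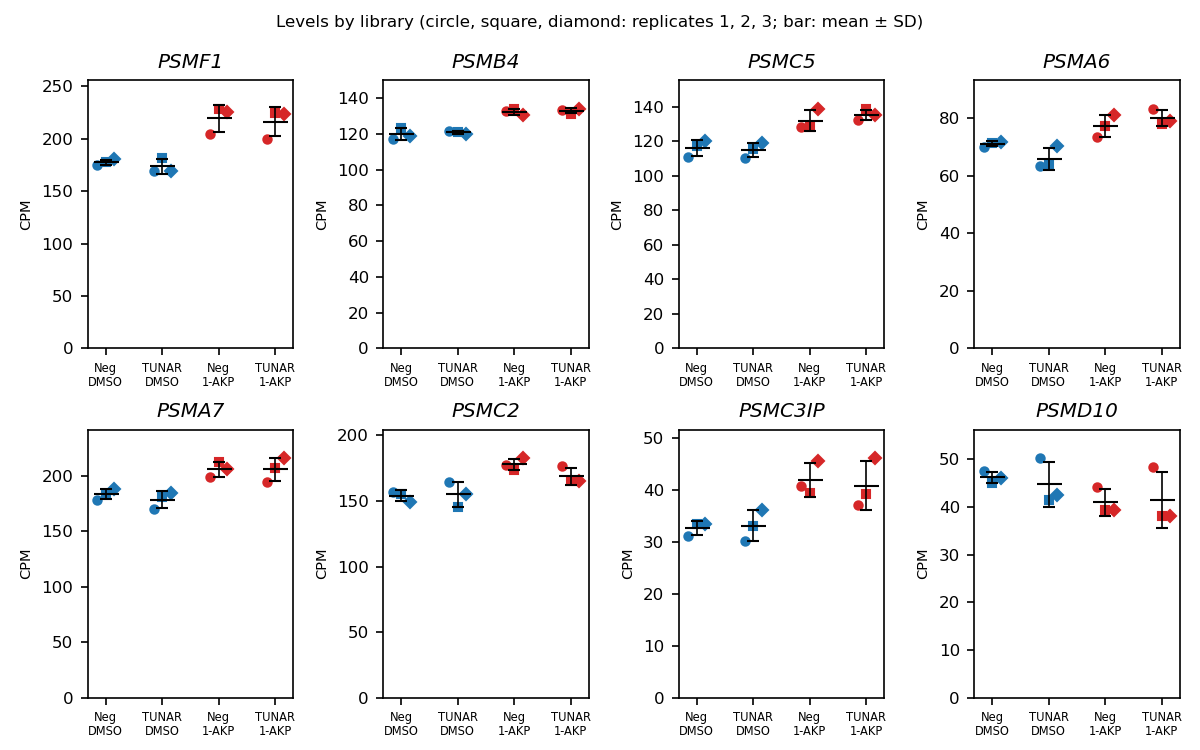
CPM in each library for 8 members, by group, with replicates 1, 2 and 3 as circles, squares and diamonds, DMSO in blue and 1-AKP in red, and bars for the mean and SD of 3 libraries. The vertical axes start at 0. For PSMF1 and PSMB4 every library in 1-AKP lies above every library in DMSO, while for PSMD10 replicate 1 lies above the others of its group.

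The sequence before the transcription start is shown for the 3 members that rose with both siRNAs. The comparisons with negative and with TUNAR siRNAs had no library in common. They shared the estimate of the spread, the replicate numbers and the passages, so their calls are not independent. Each is the 250 bases upstream of the start in RefSeq (build GRCh38.p14, plus strand, most upstream RefSeq start for PSMC5 and PSMF1), 5′ to 3′. Capitals mark a match to 1 of 3 motifs searched on both strands: the antioxidant response element core TGACNNNGC, bound by NFE2L1 and NFE2L2, the CCAAT box CCAAT, and the TCF/LEF site ATCAAAG of Wnt signalling, none of which contains another.
PSMB4, chr1:151399323-151399572: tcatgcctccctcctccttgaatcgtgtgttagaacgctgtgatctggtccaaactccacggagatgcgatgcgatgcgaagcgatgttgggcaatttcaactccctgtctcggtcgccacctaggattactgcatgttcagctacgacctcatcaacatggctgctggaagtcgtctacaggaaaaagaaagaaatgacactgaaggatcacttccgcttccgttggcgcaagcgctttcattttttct
PSMC5, chr17:63827181-63827430: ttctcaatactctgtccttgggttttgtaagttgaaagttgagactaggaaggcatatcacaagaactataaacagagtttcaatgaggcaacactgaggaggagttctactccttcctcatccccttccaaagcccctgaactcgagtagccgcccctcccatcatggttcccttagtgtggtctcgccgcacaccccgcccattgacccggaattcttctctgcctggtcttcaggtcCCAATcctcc
PSMF1, chr20:1113013-1113262: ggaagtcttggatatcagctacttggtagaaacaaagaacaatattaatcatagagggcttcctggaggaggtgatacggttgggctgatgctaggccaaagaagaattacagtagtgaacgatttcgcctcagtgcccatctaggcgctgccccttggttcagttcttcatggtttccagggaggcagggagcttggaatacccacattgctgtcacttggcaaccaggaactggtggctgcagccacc

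Of these 3 windows, that of PSMC5 held a CCAAT box and the other two held no match. Over all members, 43 of 49 were matched to 54 RefSeq windows. PSMA7, PSMB1, PSMB6, PSMB7, PSMD4 and PSMG3 were not matched. The antioxidant response element core was found in 13 of 54 windows (24.1%) and in 10.9% of all 35116 windows of that length. The CCAAT box was found in 23 windows (42.6%; 32.0% of all), and the TCF/LEF site in 0 (2.26% of all). The antioxidant response element core was held by PSMA4, PSMB3, PSMB9, PSMC5, PSMD3, PSMD5, PSMD9, PSMD12, PSME1, PSME2, PSME4, PSMG1 and PSMG2. For PSMC5 it lay in the window of another RefSeq start than the one printed. These are matches of letters, and binding was not measured.

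TUNAR siRNAs were compared with negative siRNA within each treatment, to ask whether a lower level of TUNAR went with change in proteasome genes. No member passed the test by edgeR in DMSO, where 0.0125% of all genes did, or in 1-AKP, where 0.0% did. TUNAR itself did not pass in this fit. Its log2 fold changes were -1.44 (adjusted p = 0.248) in DMSO and -1.53 (adjusted p = 0.159) in 1-AKP. A missing call therefore does not show that a member was unchanged. The fit with the replicate number as a block called 3.05% of all genes in DMSO and 2.77% in 1-AKP, and still none of the 47 members. At an unadjusted p under 0.05 there were 0 and 2 members (2 and 4 with the block), and DESeq2 called 0 in both. Over all genes that p was reached by 4.85% and 4.65% (14.1% and 13.7% with the block), and DESeq2 called 0.131% and 0.0938%. The median log2 fold change over the members was -0.03 in DMSO, with 16 of 47 above 0, and 0.002 in 1-AKP, with 25 above 0. In DMSO 1 member lay wholly higher with TUNAR siRNAs and 5 wholly lower (5.30% and 5.22% of all genes). In 1-AKP 2 lay wholly higher and 2 wholly lower (4.50% and 4.47% of all genes).

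The members nearest to a call were PSMA4 and PSMA6 in DMSO and PSMD7 and PSMG2 in 1-AKP. PSMA4 was 125 ± 4.79 CPM (SD, n = 3) with negative and 118 ± 5.03 CPM with TUNAR siRNAs, a log2 fold change of -0.09 (adjusted p = 0.220 with the block). PSMA6 was 71.1 ± 0.900 and 65.8 ± 3.90 CPM, with -0.11 (adjusted p = 0.223 with the block). The groups overlapped for both. In 1-AKP, PSMD7 stood at 89.3, 92.6 and 94.8 CPM with negative and 84.0, 84.6 and 89.2 CPM with TUNAR siRNAs, with a log2 fold change of -0.10 (adjusted p = 0.170 with the block). PSMG2, a core chaperone, stood at 41.3, 42.6 and 43.4 CPM and 39.8, 39.1 and 36.9 CPM, with -0.14 (adjusted p = 0.203 with the block). Both were lower with TUNAR siRNAs in all 3 libraries. The others among the 5 members with the lowest p were PSMA2, PSMB2 and PSMG3 in DMSO and PSMA1, PSMB2 and PSMC2 in 1-AKP. PSMB2 stood at 130, 125.4 and 131 CPM with negative and 120, 123 and 125.1 CPM with TUNAR siRNAs in DMSO, narrowly separate. In 1-AKP its values were 139, 135 and 138 CPM and 124, 135 and 130 CPM, and the groups overlapped.

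The difference of the siRNA effect between 1-AKP and DMSO, which is also the difference of the 1-AKP effect between siRNAs, passed the test by edgeR for none of the 47 members and for 0.0% of all genes. At an unadjusted p under 0.05 there were 0 members, against 1.06% of all genes, and DESeq2 called 0. Its largest member estimate was 0.25 for PSMG3 (SE 0.13), followed by 0.16 for PSMA6 (SE 0.080, unadjusted p = 0.0611).

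Other genes of the pathway were taken from lists chosen with earlier results of these data known. With 1-AKP 3.54% and 3.72% of all genes rose with negative and TUNAR siRNAs, and 3.76% and 3.79% fell. Of 11 other genes of the particle and its assembly, 2 rose and 0 fell in each 1-AKP comparison. They were POMP, the chaperone that completes core assembly (means of 72.3 CPM in DMSO and 83.5 CPM in 1-AKP with negative siRNA, log2 fold changes 0.21 and 0.20, adjusted p = 0.0403 and 0.0420), and PITHD1 (0.27 and 0.40, adjusted p = 0.0102 and 0.00121). Of 9 genes that control proteasome transcription, 2 rose and 0 fell in each. NFE2L2 encodes the NRF2 factor and rose by 0.39 and 0.42 (adjusted p = 0.0238 and 0.0146), and its partner MAFG rose by 0.46 and 0.55 (adjusted p = 0.00121 and 0.000337). NFE2L1, the factor that restores proteasome genes after inhibition, had values of 0.02 and 0.01.

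Among genes of ubiquitin supply and delivery, RPS27A, which encodes ubiquitin fused to a ribosomal protein, rose with TUNAR siRNAs (log2 fold change 0.23, adjusted p = 0.0494), and its value with negative siRNA was 0.20 (adjusted p = 0.0776). None of 11 interferon-linked antigen processing genes passed by edgeR in either 1-AKP comparison, with 4 and 1 at an unadjusted p under 0.05 (20.9% and 21.4% of all genes), and their medians were -0.14 and -0.09. None of 6 proliferation genes passed, with 0 at an unadjusted p under 0.05 in each. Of the 13 beta-cell markers 3 fell with negative and 2 with TUNAR siRNAs (3.76% and 3.79% of all genes), and none passed as higher. The largest change of the 13 was upward, in G6PC2, which did not pass by edgeR. With negative siRNA its mean was 25.7 CPM in DMSO and 138 CPM in 1-AKP (log2 fold change 2.43, adjusted p = 0.176). With TUNAR siRNAs the G6PC2 means were 26.8 and 124 CPM (2.20, adjusted p = 0.213). NKX2-2 (log2 fold change -0.80 and -0.87) and NKX6-1 (-0.52 and -0.48) fell with both, and IAPP (-0.80) with negative siRNA. With negative siRNA the summed level of the 13 was 21853 to 25260 CPM in DMSO and 21802 to 24275 CPM in 1-AKP. With TUNAR siRNAs it was 22214 to 26325 and 21259 to 26007 CPM. Most of this sum was INS and CHGA, with means of 10616 and 11025 CPM with negative siRNA and DMSO. The part of these other genes in the members' values was not tested.

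The members also varied with the replicate number. For 18 of 47 members replicate 1 lay below the mean of replicates 2 and 3 in all 4 groups, as it did for 25.1% of all genes, and for PSME1, PSME2, PSMD10 and PSMD3 it lay above that mean in all 4 (24.3% of all genes). The catalytic genes PSMB5 and PSMB6 were among the 18, with mean log2 differences of -0.13 and -0.15. Replicate 3, from passage 75, lay above replicate 2 in all 4 groups for 11 members (11.2% of all genes) and below it for none (11.8%).

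Within passage 75, with 1 library a group and so no test, 45 of 47 members were higher in 1-AKP with negative siRNA (median 0.12) and 40 with TUNAR siRNAs (median 0.12). Within passage 74 alone the fitted medians were 0.10 and 0.12, with 43 of 47 above 0 in each, and no member passed by edgeR (8 at an unadjusted p under 0.05 in each), where 0.318% and 0.418% of all genes passed and 12.4% and 12.5% had an unadjusted p under 0.05. Over both passages, 33 of 47 members were higher in 1-AKP in all 6 pairs of libraries with the same number and siRNA, against 18.9% of all genes.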

How the data were processed

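Polyadenylated RNA of 12 EndoC-βH1 cultures was sequenced on an Illumina HiSeq instrument, per the labels' protocols. The authors deposited 1 table per library with, per the file headers, an unnormalised expected count per gene, estimated from the reads. FPKM, the same quantity scaled by gene length and library total, were deposited beside it. The deposited length column holds another quantity, a gene length in bases. In the submitters' processing notes are named BWA, Bowtie and RSEM, with GRCh37 and hg19 as builds, without versions or roles.

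Entrez identifiers were matched to current symbols (21386 of 21508). Genes not listed in a library were taken as 0. Expected counts were rounded. In edgeR 4.0.16 (R 4.3.3), filterByExpr (minimum count 10, minimum total 15) kept 15990 genes, libraries were scaled by TMM (0.990 to 1.014), and 1 quasi-likelihood fit of 4 group means (8 residual degrees of freedom, biological coefficient of variation 8.74%) gave each contrast, with Benjamini-Hochberg adjustment over all genes. CPM are TMM-scaled. Chi-square per degree of freedom between libraries of a group ran from 2.35 to 11.7, so none was a copy.

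Deviations from the group means correlated between libraries of the same number at 0.376, 0.178 and 0.217 in the siRNA comparison in DMSO and 0.416, 0.162 and 0.286 in 1-AKP. All exceed 0.1, so the fit with the number as a block is given there. Apart from the passage, what a shared number stands for is not stated in the labels. The members and gene lists were chosen with earlier results of these data known. Members called in any comparison, the catalytic pairs, PSME1, PSME2 and the 5 members with the lowest p in each comparison were named. Alternatives were the replicate block, DESeq2 1.42.0, other scalings and filters, limma 3.58.1 on log2 FPKM, other sets of libraries, passage, and, chosen after seeing the data, removal of the length trend and of all replicate 1 libraries. The fits were tested on simulated counts. Counts for the list of ubiquitin supply and delivery and 1 of its genes are not reported here.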

Additional observations from a re-analysis of the deposited data

How the results depend on the processing

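The counts of members called with 1-AKP varied between the alternatives. With negative siRNA the 5 members became 22 with the replicate block (21 higher, PSMD10 lower), 10 with passage as a covariate, 8 by DESeq2, 3 with no filter on low counts and with the groups compared alone, and 2 with library size scaling and by limma on log2(FPKM + 0.1) and log2(FPKM + 1). Passage 74 alone gave 0. The same settings, in that order, called higher 14.01%, 4.81%, 4.37%, 2.22%, 2.29%, 2.59%, 2.63%, 2.58% and 0.0624% of all genes. With TUNAR siRNAs the 7 became 26 with the replicate block, 4 with library size scaling and with no filter, 1 with the groups compared alone and 0 in passage 74, where 14.2%, 3.10%, 2.36%, 1.16% and 0.0873% of all genes were called higher. Here the numbers are not taken as pairs, since same-numbered libraries correlated at 0.0871 to 0.427 and at 0.0634 to 0.407, not all above 0.1. The lowest values were those of replicate 2 and the highest those of replicate 1, and all were above 0. The limit of 0.1 is a choice, and the siRNA comparisons of the same libraries met it. The block lowered the biological coefficient of variation from 8.74% to 2.86%. The fit without it therefore left spread shared by same-numbered libraries in its residual. The counts of members called depend on the use of the block. A missing call in the fit without it does not show that a member was unchanged. The block without number 1, 2 or 3 gave 21, 15 and 8 members with negative and 22, 17 and 12 with TUNAR siRNAs (12.2%, 9.47% and 8.77%, and 12.9%, 9.59% and 8.61% of all genes higher). Further alternatives were added after seeing the data: with the length trend removed 2 and 1 members were called (2.80% and 2.87% of all genes higher), and without all replicate 1 libraries 14 and 14 (8.29% and 9.05%). Leaving out 1 library gave 1 to 8 members with negative siRNA and 1 to 7 with TUNAR siRNAs, where 1.32% to 4.22% and 1.46% to 4.09% of all genes were called higher. With negative siRNA this was 1 without any library of negative siRNA and DMSO or replicates 2 or 3 of negative siRNA and 1-AKP, 2 without replicate 2 of TUNAR siRNAs and DMSO, 3 without replicate 1 of negative siRNA and 1-AKP or replicate 2 of TUNAR siRNAs and 1-AKP, and 8 without replicate 1 of the latter. With TUNAR siRNAs it was 1 and 2 without replicates 2 and 1 of TUNAR siRNAs and DMSO, 3 without replicate 3 of TUNAR siRNAs and 1-AKP, and 4 without replicates 2 or 3 of either negative siRNA group, replicate 3 of TUNAR siRNAs and DMSO, or replicate 2 of TUNAR siRNAs and 1-AKP. The cause was not tested. The siRNA comparisons and their difference gave 0 members under every alternative run. Among the results followed for the named members, only uncalled ones near 0 changed sign. Other members changed sign too: with negative siRNA 45 of 47 lay above 0 in the main fit and 42 with library size scaling. With 1 library left out, the log2 fold change of PSMB8 ran from -0.0874 to 0.170 with negative and from -0.0898 to 0.0878 with TUNAR siRNAs, that of PSME1 from -0.0291 to 0.110 and from -0.118 to 0.0172, that of PSME2 with negative siRNA from -0.0352 to 0.0723, and that of PSMB6 with TUNAR siRNAs from -0.00238 to 0.107. With the length trend removed the values were -0.00639 (PSMB8), -0.0373 (PSME1) and -0.0440 (PSME2) with negative and -0.0417 (PSMB8) and -0.0170 (PSMB6) with TUNAR siRNAs. The block without number 2 gave -0.0105 for PSMB8 with negative siRNA, and without number 1 it gave -0.0127 for PSME2 with negative and -0.129 for PSMB8 with TUNAR siRNAs, as did leaving out all replicate 1 libraries with no block (-0.0127 and -0.129). Depth limits PSMB8 and PSMB10 (46 to 100 counts per library) and left PSMB9 and PSMB11 untested.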
